A study of Mus musculus with 8 samples.

Results

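A set of 6 genes that encode surface antigens used to sort blood stem cells and multipotent progenitors, Procr, Ly6a, Slamf1, Cd34, Cd48 and Cd27, were chosen by name from the 27998 genes counted. They were followed across progenitor states, in their co-detection within single cells, and across 8 pools of mice. The cells were KL cells, bone marrow cells sorted as c-Kit (CD117) positive and negative for markers of mature lineages, from female B6 mice aged 3 to 4 months. By the mouse numbers in the labels, a group of 10 mice stayed in a specific-pathogen-free (SPF) facility. Another 10, the CVT mice, had been co-housed in a conventional facility for a month. The study's figure legend instead gives 8 mice per group. Each group was pooled into 4 samples of 2 or 3 mice (SPF pools 1, 2, 7 and 8, CVT pools 3, 4, 5 and 6), and each pool was 1 single-cell 3′ library, so a difference between mice of a pool cannot be seen. Whatever else differed between the facilities came with the housing group and cannot be told apart from it.

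Stem cell sorting rests on a few surface proteins. Procr encodes EPCR, the receptor of activated protein C, and marks long-term stem cells. Ly6a encodes Sca-1, a lipid-anchored protein that separates stem cells and multipotent progenitors from committed myeloid and erythroid progenitors, and that interferons induce. Slamf1 encodes CD150, and Cd48 encodes CD48, a ligand of CD244: the SLAM scheme takes CD150-positive, CD48-negative cells as stem cells. Cd34 encodes a sialomucin that is low or absent on long-term stem cells of adult mice and present on multipotent and myeloid progenitors. Cd27 encodes a receptor of the TNF receptor family whose ligand is CD70 and that is carried by stem cells and lymphoid-primed progenitors. Protein on the cell surface was not measured here, so a cell called positive is one in which a transcript was counted.

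Slamf1, Cd34 and Cd48 all lie on chromosome 1, with Cd48 (GRCm38 chr1:171682009-171705258, plus strand) ending 61.9 kb before Slamf1 (chr1:171767127-171801184, plus strand), and Cd34 further along (chr1:194938819-194961279, plus strand). Procr lies at chr2:155751117-155755471 (plus strand), Ly6a at chr15:74994877-74998031 (minus strand) and Cd27 at chr6:125232622-125237010 (minus strand), all protein-coding. These positions are from GENCODE (GRCm38), while the labels name mm9 for the counts, so they describe the genes and not the alignment. The 250 bases before the transcription start are shown for the 3 genes of chromosome 1, because the neighbours Slamf1 and Cd48 had different patterns over the states, and Cd34 another one. They are from RefSeq (GRCm38.p6), on the plus strand at chr1:171766882-171767131, chr1:171681742-171681991 and chr1:194938571-194938820, and capitals mark GATAA and GGAAG on either strand.
Slamf1: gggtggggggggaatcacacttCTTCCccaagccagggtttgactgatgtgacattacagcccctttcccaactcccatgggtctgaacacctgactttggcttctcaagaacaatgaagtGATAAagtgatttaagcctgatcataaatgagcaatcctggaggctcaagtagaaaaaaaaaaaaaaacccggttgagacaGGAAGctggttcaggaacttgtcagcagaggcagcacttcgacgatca
Cd48: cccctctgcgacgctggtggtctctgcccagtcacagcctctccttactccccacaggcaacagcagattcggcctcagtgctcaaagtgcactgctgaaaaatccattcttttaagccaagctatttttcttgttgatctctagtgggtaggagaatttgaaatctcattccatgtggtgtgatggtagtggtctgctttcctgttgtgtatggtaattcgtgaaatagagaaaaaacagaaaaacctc
Cd34: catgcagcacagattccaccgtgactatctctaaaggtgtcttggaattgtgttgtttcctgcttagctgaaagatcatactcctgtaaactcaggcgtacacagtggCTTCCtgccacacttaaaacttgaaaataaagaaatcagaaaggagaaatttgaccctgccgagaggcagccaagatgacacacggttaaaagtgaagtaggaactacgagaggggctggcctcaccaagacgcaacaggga
The letters GATAA, the core that GATA factors bind, occurred once before Slamf1, 129 bases from the start, and in none of the other 4 promoters matched (Ly6a had no entry). They occur in 22.6% of 32851 mouse promoters of this length. GGAAG, the core of ETS factors, was found before Slamf1, Cd34, Procr and Cd27 and is in 64.1% of promoters. TGTGGT, the core of RUNX factors, was found before Cd48 (14.0% of promoters). A match says that the letters are there and nothing of binding.

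The table held 29891 cells, 17560 from CVT and 12331 from SPF mice, with 2759 to 49732 UMIs (unique molecular identifiers, the counted molecules) per cell. Pools held 41901551 to 59812346 UMIs in CVT and 19041749 to 49911524 in SPF mice, so SPF pools 1 and 7 were the shallowest. Of the cell barcodes, 522 occurred in more than 1 pool. Kit, the antigen of the sort, had a UMI in 51.0% of cells, at 56.8 to 87.2 CPM (a gene's counts after the UMIs are scaled to the same total) per pool. Transcripts of the depleted T cell antigens were low (Cd3e at most 0.454 and Cd3d at most 5.15 CPM, both highest in SPF pool 7), while Ly6g, a gene of mature granulocytes, was at 7.41 to 69.5 CPM, highest in SPF pool 7.

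States were taken from 36 clusters built without the 6 genes and named by other markers. LTHSC-like cells (1657) came from a cluster of 1594, with long-term stem cell genes such as Hlf, Mecom and Mllt3, and one of 63 cells. Of the LTHSC markers the small cluster had only Angpt1, Hlf and Ifitm1 among its leading genes, and it had 3 MPP markers as well. There were 2128 MPP-like, 3235 LMPP-like, 7236 GMP-like, 8316 MEP-like and 2951 megakaryocyte-like cells. Another 876 cells were basophil- or mast-like, 1660 late granulocyte-like, 580 monocyte-like, 80 dendritic-like, 167 B-like and 137 T- or NK-like. A cluster of 868 cells led by Hist1h2bc, Ccnb2, Ptms, Dntt and Hist1h1c stayed without a name, and no cluster was named CMP. Levels by state are given as CPM of the summed UMIs of a pool, as mean ± SD over pools, and as descriptions without a test, because the states come from the same cells.

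Procr had the largest share of its UMIs in LTHSC-like cells of the 6 genes. It stood at 53.6 ± 8.35 CPM in LTHSC-like cells (n = 8 pools), 13.7 ± 3.79 in MPP-like and 5.69 ± 1.91 in LMPP-like cells, and at 0.413 ± 0.298 in MEP-like cells. LTHSC-like cells did not overlap any other state in any pool (41.2 to 63.2 CPM, against at most 20.8 elsewhere). MPP-like cells overlapped the unnamed cluster (13.6 ± 4.503) but not LMPP-like cells (at most 8.04). LTHSC-like cells made up 3.31% of all UMIs but 41.0% ± 10.4 of Procr UMIs. Even so, 73.9% of LTHSC-like cells had no Procr UMI, 20.3% had 1 and none had more than 4. After all cells were thinned to 2759 UMIs, the smallest total of a cell, 14.4% ± 2.12 of LTHSC-like cells held a Procr UMI, against 0.129% ± 0.110 of MEP-like cells, which should lack it. Median depth before thinning was 5598 and 8179 UMIs, and the deeper MEP-like cells held the gene less often. The small LTHSC-like cluster of 63 cells had 3.88 ± 3.66 CPM of Procr in the 3 pools with enough cells, below each pool of the large cluster (41.3 to 74.5). With the 6 genes used in the clustering, the MPP-like level was 20.7 CPM.

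Ly6a had its peak among progenitors in LTHSC-like cells, at 144 ± 12.1 CPM, with pools from 124 to 157. LMPP-like cells followed at 59.4 ± 17.1 and MPP-like cells at 41.6 ± 7.71, which overlapped each other but not LTHSC-like cells. Committed states were far lower, at 3.80 ± 0.711 in GMP-like, 2.76 ± 1.39 in megakaryocyte-like and 1.53 ± 0.728 in MEP-like cells. The few dendritic-like cells were higher than stem cells (314 ± 102 CPM, 5 pools with at least 10 such cells), and B-like cells varied from 0 to 365 CPM between 5 pools. LMPP-like cells were not uniform for Ly6a. A cluster of 1028 of them led by Wfdc17, Wfdc18 and Dntt had 154 ± 29.8 CPM of Ly6a, overlapping LTHSC-like cells, together with 15.6 ± 2.34 CPM of Procr, 523 ± 60.9 of Cd34, 297 ± 29.8 of Cd27 and 108 ± 24.1 of Cd48. Thinned to 1 depth, 30.3% ± 3.13 of LTHSC-like, 15.9% ± 4.06 of LMPP-like and 0.454% ± 0.227 of MEP-like cells held a Ly6a UMI. With the 6 genes used in the clustering, the MPP-like level was 78.6 CPM. Ly6a belongs to a multigene family, and how reads shared between its members were counted is not given in the sources used here.

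Slamf1 was shared by stem cells and the megakaryocyte and early erythroid branch. It was highest in megakaryocyte-like cells (18.95 ± 3.496 CPM), then in LTHSC-like (10.2 ± 4.45) and MEP-like cells (9.23 ± 1.76), and the ranges of these neighbours overlapped. In GMP-like (1.31 ± 0.486), LMPP-like (1.73 ± 0.341) and MPP-like cells (2.56 ± 0.605) it was lower, and none of these 3 overlapped megakaryocyte-like or MEP-like cells. MPP-like cells (at most 3.42 CPM) did overlap LTHSC-like cells, whose lowest pool had 3.18. Of all Slamf1 UMIs, 52.1% ± 4.39 came from MEP-like and 25.7% ± 4.12 from megakaryocyte-like cells, and 5.30% ± 2.32 from LTHSC-like cells. The value in LTHSC-like cells rests on 97 UMIs in all, and spread from 3.18 CPM in SPF pool 1 to 16.5 in CVT pool 3.

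Within the MEP-like class, Slamf1 differed between the 6 largest clusters. The cluster of 2548 cells led by Pdzph1 and Clec4d, with F2r among its leading genes, had 26.3 ± 5.06 CPM of Slamf1, and the one of 1106 cells led by Csrp3 and Trib2 had 21.8 ± 3.83. A cluster of 1647 cells led by Car1, a carbonic anhydrase of erythroid progenitors, had 11.9 ± 3.64. The clusters of 1026, 957 and 693 cells, led by genes such as Fam132a, Mt2 and Ermap, had 2.26 ± 1.22, 4.199 ± 0.960 and 2.77 ± 1.44. These last clusters were also the deepest, with median UMIs of 29876.5, 22661 and 19723 against 4957.5 and 5936 in the first 2. The cluster of 2548 cells took the MEP name on 4 markers among its 100 leading genes, with none in the first 10. At resolution 1 a cluster of 3204 cells led by Clec4d and Pdzph1 stayed without a name, and the MEP-like class held 5341 cells. The MEP-like share of Slamf1 UMIs thus depends on a weak name. With cells weighted by the chance that a Slamf1 UMI was kept on thinning, MEP-like cells with Slamf1 held more Gata2, an early factor of this branch (231 against 116 CPM, higher in 8 of 8 pools), and more Itga2b (25.5 against 13.3, 7 of 8). They held less of the proliferation gene Mki67 (71.6 against 135, higher in 0 of 8) and of Car1 (2402 against 3078, higher in 0 of 8). In cells as deposited the gaps were smaller, at 157 against 115 CPM for Gata2 and 16.2 against 13.3 for Itga2b. There Mki67 was at 116 against 135, and Car1 at 2962 ± 339 against 3069 ± 241 (higher in 2 of 8). These companion genes were chosen with values known and carry no test.

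Cd34 had a plateau over the multipotent states. It stood at 437 ± 30.9 CPM in MPP-like, 426 ± 30.6 in LMPP-like and 452 ± 38.9 in the unnamed cells, which overlapped each other. LTHSC-like cells were below all 3 in level (309.6 ± 44.2, highest pool 376, against a lowest pool of 387 in LMPP-like cells). GMP-like cells (230.1 ± 16.7) overlapped LTHSC-like cells only through CVT pool 4, whose LTHSC-like cells had 224 CPM. MEP-like cells were lowest, at 11.6 ± 3.03. Because GMP-like cells are many and deep, they gave 43.8% ± 8.79 of all Cd34 UMIs and LTHSC-like cells 6.11% ± 2.75. A Cd34 UMI was left after thinning in 69.9% ± 2.90 of MPP-like, 52.8% ± 5.21 of LTHSC-like and 3.85% ± 0.921 of MEP-like cells.

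By class mean, Cd48 was low in LTHSC-like, MEP-like and late granulocyte-like cells and higher in multipotent, granulocyte-monocyte and monocyte-like states. LTHSC-like cells had 65.1 ± 11.2 CPM, against 229 ± 24.2 in MPP-like and 194 ± 33.0 in LMPP-like cells, with no overlap of pools. The highest levels were in monocyte-like (454 ± 105) and dendritic-like cells (317 ± 41.0), with GMP-like cells at 239 ± 15.2. MEP-like cells (49.8 ± 8.88) and late granulocyte-like cells (45.5 ± 13.1) overlapped LTHSC-like cells, so a low Cd48 level was shared by stem cells and by committed erythroid and granulocytic cells. GMP-like cells gave 51.3% ± 8.23 of Cd48 UMIs. After thinning, 12.9% ± 2.31 of LTHSC-like cells still held Cd48, near the 16.6% ± 2.26 of MEP-like cells and the 8.10% ± 2.82 of late granulocyte-like cells (median 7234 UMIs). With the 6 genes used in the clustering, the LTHSC-like class held 1162 cells and its Cd48 level was 26.4 CPM.

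Cd27 did not separate stem cells from multipotent progenitors. LMPP-like, MPP-like and LTHSC-like cells stood at 215 ± 14.9, 214 ± 22.4 and 212 ± 21.1 CPM, closer to each other than their SD over pools. T- or NK-like cells were in the same range (204 ± 40.7), and the unnamed cells were somewhat higher (254 ± 19.01) with overlapping pools. GMP-like cells had 98.2 ± 8.79 and MEP-like cells 23.8 ± 5.27, both apart from the multipotent states in each pool.

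**Figure D1:**
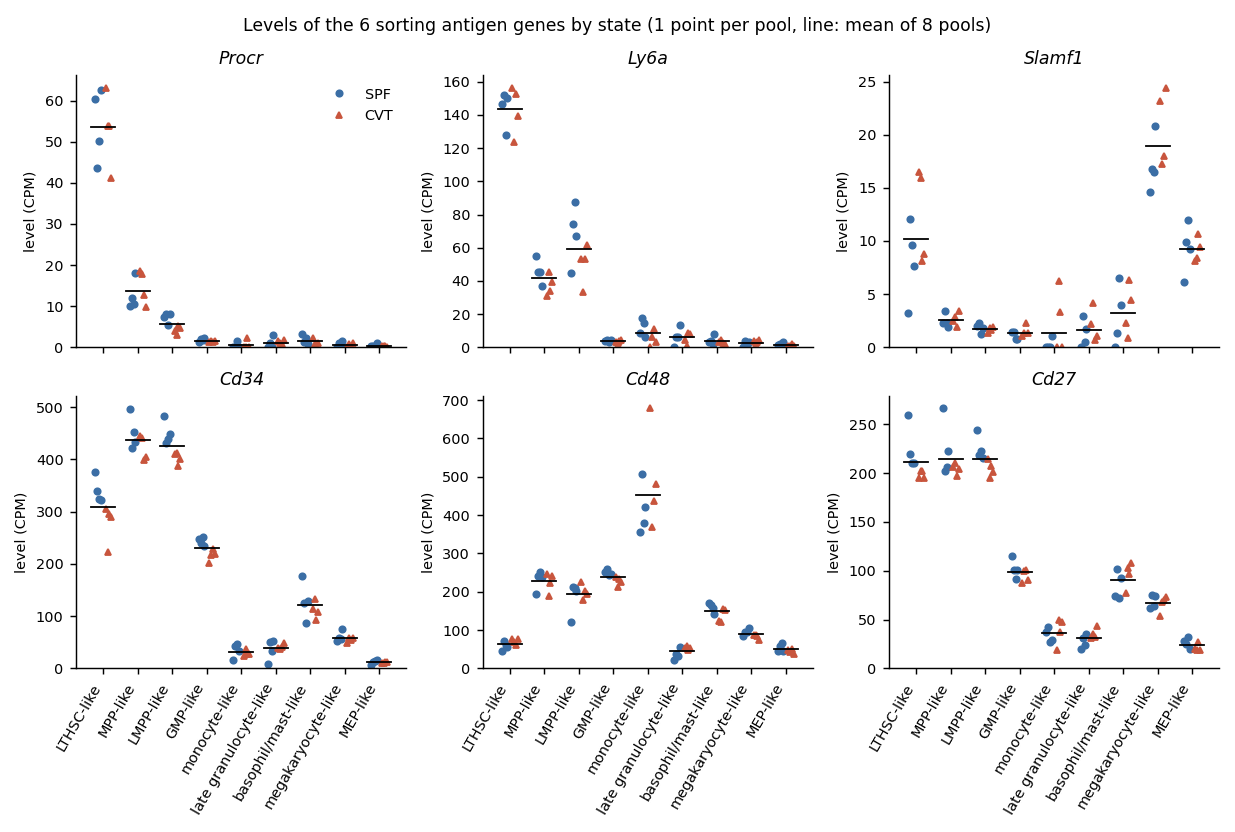
Level of each of the 6 genes in CPM (vertical axes, linear, from 0) in 9 states with all 8 pools, 1 point per pool (circles SPF, triangles CVT), with a line at the mean of 8 pools. Procr and Ly6a peak in LTHSC-like cells, Slamf1 in megakaryocyte-like cells, Cd34 in MPP-like and LMPP-like cells and Cd48 in monocyte-like cells, while Cd27 is level over the first 3 states.

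The genes most like each member over the 36 clusters were found by Pearson's r of log2(CPM + 10) among 10769 genes. Clusters share libraries and differ in depth, so these are descriptions. For Procr they were Bdh2 (r = 0.914), Crispld1 (0.886) and Hlf (0.885), a transcription factor of stem cells. For Slamf1 they were F2r, the thrombin receptor of platelets and their precursors (0.896), Rab40b (0.883) and Gp5, a platelet glycoprotein (0.877). For Cd27 they were Elk3 (0.929), Tes (0.911) and Tap2, a peptide transporter of antigen presentation (0.910), and for Cd48 Gm2a (0.861), Tor3a (0.858) and the immunoproteasome gene Psmb8 (0.842). Cd34 was closest to Plppr3 (0.920), Sh2d5 (0.914) and Adgrl4 (0.907), and Ly6a to Trp53i11 (0.929), Snn (0.925) and Tnfrsf13c, the BAFF receptor (0.901). Among the members themselves Cd34 and Cd27 were most alike (0.867), while Procr and Slamf1, both stem cell antigens, were unrelated over clusters (-0.073).

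Single-cell combinations of transcripts were then set against the states, with cells thinned to 2759 UMIs, a gene called positive with 1 UMI or more and negative with none. Cells positive for Procr and Ly6a were LTHSC-like in 67.3% ± 11.4 of cases (8 pools), LMPP-like in 16.4% ± 8.37 and MPP-like in 10.4% ± 6.401. This combination still held only 5.52% ± 1.34 of LTHSC-like cells. It came to about 132 cells over all states, about 90.5 of them LTHSC-like. Procr alone gave 47.8% ± 11.5 LTHSC-like cells, Procr without Cd48 54.1% ± 10.6, and Ly6a alone 30.9% ± 7.54 with 33.6% ± 7.11 LMPP-like cells. The transcript version of the SLAM combination, Slamf1 without Cd48, was LTHSC-like in 7.69% ± 2.62 of cases, MEP-like in 56.2% ± 4.31 and megakaryocyte-like in 24.8% ± 4.81. This MEP-like share includes the weakly named cluster led by Pdzph1 and Clec4d. At this depth a missing UMI does not show that a cell lacks the transcript. After thinning, a Cd48 UMI was left in 47.6% ± 2.22 of GMP-like and 43.3% ± 3.89 of MPP-like cells. As deposited, 93.1% and 72.7% of these cells held a Cd48 UMI. With no UMI of Cd48 or Cd34 the LTHSC-like share of Slamf1-positive cells was 5.66% ± 2.49. For cells with Procr and Slamf1 and without Cd48, whatever their Cd34, it was 87.5% ± 14.98 in 7 pools, on about 6.42 cells in all. For cells positive for Cd34 and Cd48, GMP-like was the largest state (42.9% ± 9.22), with 21.7% ± 3.98 LMPP-like and 17.4% ± 4.36 MPP-like.

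**Figure D2:**
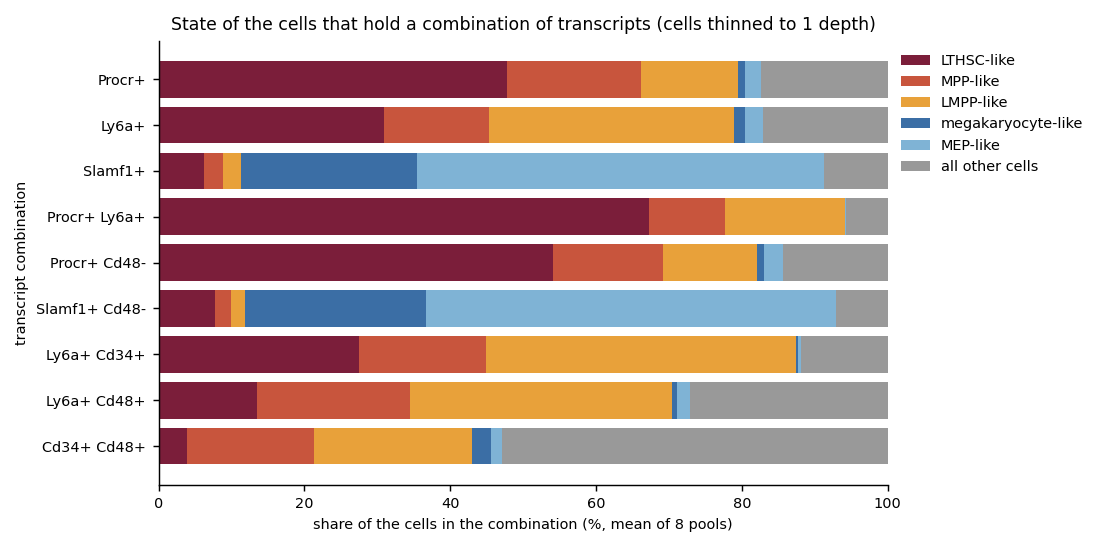
Share in percent (horizontal axis, mean of 8 pools) of the cells of each transcript combination (vertical axis) that belonged to each state, cells thinned to 1 depth. Bars for Procr+ Ly6a+ are mostly LTHSC-like (67.3%), and those for Slamf1+ Cd48- mostly MEP-like (56.2%) and megakaryocyte-like (24.8%).

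For each of the 15 pairs, the share of cells with both transcripts was divided by the product of the shares with each, per pool, so that 1 is the value for independent detection. Over all KL cells the largest ratio was that of Procr with Ly6a (5.43 ± 1.62, above 1 in 8 of 8 pools). Ly6a with Cd27 (1.86 ± 0.162), Ly6a with Cd34 (1.82 ± 0.188) and Cd34 with Cd27 (1.56 ± 0.106) were above 1 in each pool too. Slamf1 with Cd34 (0.488 ± 0.049) and Procr with Cd48 (0.610 ± 0.145) were below 1 in each pool. Such ratios mix states, and most shrank inside LTHSC-like cells. There Procr with Ly6a came to 1.25 ± 0.124 (8 of 8 pools above 1), and Ly6a with Cd34 (0.961 ± 0.061) and Ly6a with Cd27 (0.989 ± 0.062) were close to 1. Procr with Cd34 changed side, from 1.76 ± 0.207 over all KL cells to 0.841 ± 0.095 in LTHSC-like cells (above 1 in 0 of 8 pools). Procr with Cd48 stayed low (0.549 ± 0.167, 0 of 8), and Cd34 with Cd48 stayed high (1.27 ± 0.082, 8 of 8). In MEP-like cells Slamf1 with Cd48 was above 1 in each pool (1.43 ± 0.161). Counted as deposited, 2 LTHSC-like cells held all 6 transcripts, and 15.9% of LTHSC-like, 16.5% of MPP-like and 20.1% of LMPP-like cells held 4 or more.

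**Figure D3:**
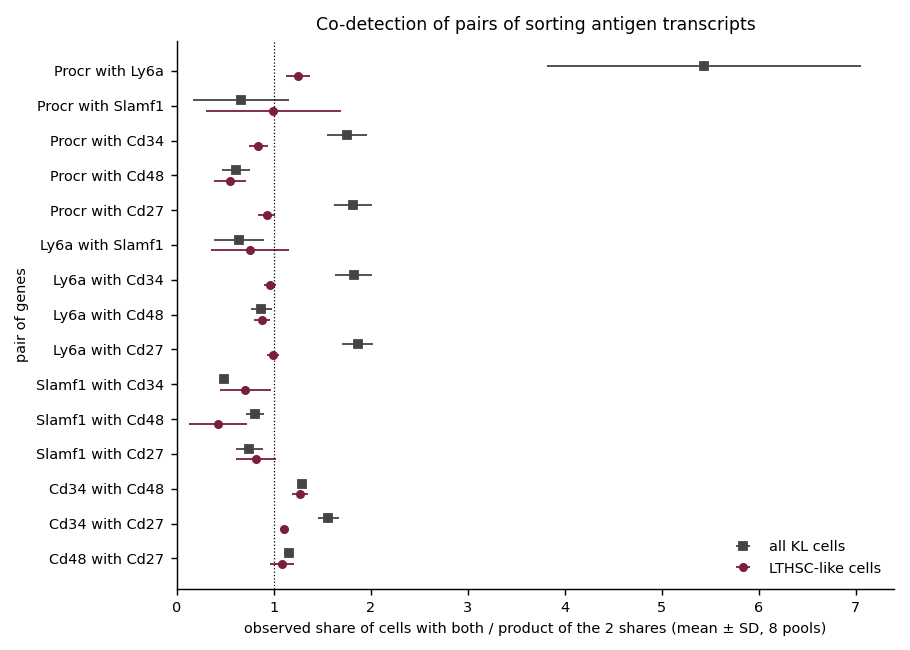
Ratio of the observed share of cells with both transcripts to the product of the single shares (horizontal axis, mean ± SD of 8 pools, dotted line at 1) for each pair of genes (vertical axis), in all KL cells (squares) and in LTHSC-like cells (circles). Procr with Ly6a falls from 5.43 to 1.25 between the 2 populations, and Procr with Cd34 crosses 1.

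Within the LTHSC-like class, other stem cell genes were compared between cells with and without each antigen. LTHSC-like cells with a Cd34 UMI (1233 cells) had 55.0 ± 13.9 CPM of Mllt3, a regulator of stem cell maintenance, against 151 ± 36.7 in those without, lower in 8 of 8 pools. Mecom (96.2 ± 11.5 against 148 ± 38.4) was also lower with Cd34 in each pool. Flt3, the cytokine receptor of multipotent progenitors, was higher (71.2 ± 13.04 against 24.1 ± 19.3), as was Cd48 (77.1 ± 11.1 against 26.9 ± 13.6), both in 8 of 8 pools. Hlf did not follow Cd34 (291 ± 32.9 against 318 ± 46.7, higher in 3 of 8).

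Cells with a Cd48 UMI (399) had less Hlf (217 ± 29.1 against 329.8 ± 42.9 CPM), Mecom (76.5 ± 22.7 against 122 ± 12.4), Mllt3 (39.2 ± 16.9 against 93.6 ± 10.45) and Procr (30.2 ± 12.9 against 63.7 ± 9.62), each higher in 0 of 8 pools. Flt3 was higher in all 8 (93.7 ± 32.1 against 47.6 ± 9.84). For Procr, Mllt3 went the other way. Cells with Procr (432) had 118 ± 31.1 CPM of Mllt3 against 65.1 ± 13.9, and 181 ± 31.2 of Ly6a against 132 ± 17.5, higher in 8 of 8 pools. Cells with Ly6a (802) had more Hlf (339.99 ± 44.6 against 255 ± 30.7, 8 of 8) and also more Flt3 (66.6 ± 15.2 against 54.2 ± 12.2, 8 of 8). Cells with Slamf1 were few (86, from 2 to 18 per pool). They had less Cd27 (145 ± 32.8 against 216 ± 21.3) and Hlf (197 ± 75.0 against 304 ± 33.2), each higher in 0 of 8 pools. Mecom and Mllt3 were each higher with Slamf1 in 5 of 8. With cells weighted for thinning, Hlf was higher with Slamf1 in 2 of 8. Median depth was 5771 UMIs with Cd34 and 5228.5 without, and 6464 with Cd48 and 5392 without. When cells were weighted by the chance that a UMI was kept on thinning, Mllt3 remained lower with Cd34 and with Cd48, and Flt3 higher, in 8 of 8 pools, and Mecom with Cd34 was higher in 1 of 8. Mki67 was low throughout, at 9.36 ± 5.36 with and 6.82 ± 6.33 without Cd34. Since cells of 1 pool are not replicates and the companion genes were chosen with values known, these are descriptions.

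**Figure D4:**
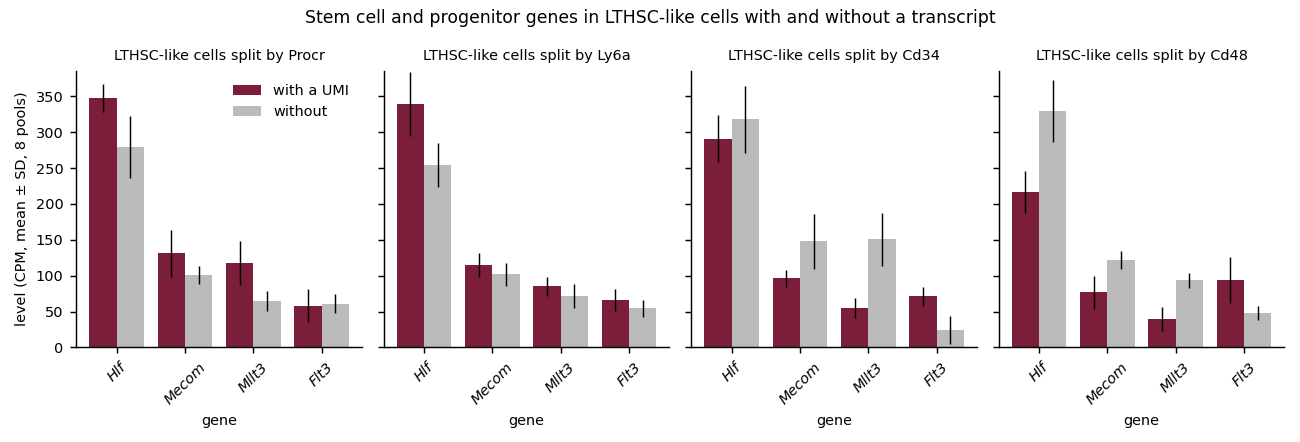
Levels in CPM (vertical axis, mean ± SD of 8 pools) of Hlf, Mecom, Mllt3 and Flt3 (horizontal axes) in LTHSC-like cells with (dark) and without (grey) a UMI of Procr, Ly6a, Cd34 or Cd48. Mllt3 is lower and Flt3 higher in cells with Cd34 or Cd48, and Mllt3 is higher in cells with Procr.

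Whether co-housing moved the 6 genes was asked first over all KL cells, with UMIs summed per pool and edgeR's quasi-likelihood test over 13092 genes. None of the 6 was called at an adjusted p under 0.05, and neither was any other gene (percent called 0; 921 genes, 7.03%, had an unadjusted p under 0.05, and DESeq2 called 15, none of them a member). Procr had the largest fitted difference. Members with an unadjusted p under 0.05 were Procr and Cd27. The level of Procr was 2.55, 2.04, 4.25 and 3.45 CPM in CVT pools 3 to 6, and 3.83, 4.26, 4.90 and 7.27 in SPF pools 1, 2, 7 and 8. The groups overlapped through CVT pool 5, and the fitted log2 fold change was -0.71 (SE 0.257, adjusted p = 0.676, edgeR). Ly6a was at 9.73, 6.62, 18.1 and 20.8 CPM in the CVT pools and 14.0, 20.9, 25.1 and 24.1 in the SPF pools. CVT pools 5 and 6 lay within the SPF range (log2 fold change -0.58, SE 0.330, adjusted p = 0.746, edgeR), and without CVT pool 4 the log2 fold change was -0.35.

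Cd27 was the member whose pools did not overlap over all KL cells. It stood at 75.5, 80.0, 93.9 and 89.7 CPM in CVT and 95.3, 98.7, 100.6 and 101 in SPF pools, a log2 fold change of -0.17 (SE 0.071, adjusted p = 0.683, edgeR), or -0.11 without CVT pool 3. The share of tested genes with all CVT pools below all SPF pools was 5.26%. Cd34 (155 ± 11.2 in CVT, 179.97 ± 15.6 in SPF, n = 4), Cd48 (144 ± 5.85 and 151 ± 16.2) and Slamf1 (5.66 ± 0.425 and 5.31 ± 0.756) overlapped, with log2 fold changes of -0.17, -0.018 and 0.12. That of Slamf1 ran from 0.048 without SPF pool 1 to 0.21 without SPF pool 2, and was 0.083 without CVT pool 5.

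The pools form sets by the mouse numbers in the labels, pools 1 to 4 and pools 5 to 8, each with 2 SPF and 2 CVT pools. Procr, Ly6a, Cd34 and Cd27 were lower in CVT than in SPF mice in each set without overlap, so the overlap of Procr, Ly6a and Cd34 given above was between the sets. This held for 4 of 6 members and for 12.3% of the genes tested, a count made after the data were seen. With the set as a block, Procr had a log2 fold change of -0.71 (SE 0.135, unadjusted p = 0.00030, adjusted p = 0.108, edgeR). Ly6a had -0.66 (SE 0.175, unadjusted p = 0.0032, adjusted p = 0.199, edgeR). No member was called under the block (percent called 0.0306, or 4 genes), and 4 of 6 members had an unadjusted p under 0.05, against 13.6% of genes.

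In summed cells, fewer cells of a type and less RNA per cell cannot be told apart. LTHSC-like cells were 2.46%, 1.72%, 6.20% and 6.48% of CVT pools 3 to 6 and 5.30%, 6.22%, 7.17% and 9.66% of SPF pools 1, 2, 7 and 8. GMP-like cells, with little Procr and Ly6a, were 29.1%, 35.7%, 20.7% and 24.3% of the CVT pools and 19.8%, 21.2%, 15.3% and 20.1% of the SPF pools. The 16 GMP markers, all with a UMI, summed to 6072 to 8535 CPM in CVT and 5457 to 6449 in SPF pools. The 18 LTHSC markers, all with a UMI, summed to 449 to 660 CPM in CVT and 539 to 903 in SPF pools. The 15 late granulocyte markers summed to 5869.6 to 28076 CPM in CVT and 9743 to 46637 in SPF pools. Without the mature-like cells Procr came to -0.76 (adjusted p = 0.482, edgeR), and it was -0.45 without SPF pool 8.

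Within LTHSC-like cells, Procr and Ly6a had fitted differences close to 0. Procr was at 63.2, 53.9, 53.8 and 41.2 CPM in CVT and 60.5, 43.5, 50.2 and 62.6 in SPF pools. The log2 fold change was -0.040, with a 95% interval of -0.35 to 0.27 (edgeR). Ly6a was at 157, 124, 153 and 139 CPM in CVT and 146, 152, 128 and 150.3 in SPF pools (log2 fold change 0.043, interval -0.15 to 0.24).

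In LTHSC-like cells the CVT and SPF pools of Cd34 did not overlap. The values were 305, 224, 295 and 290.3 CPM in CVT and 376, 340.5, 324 and 323 in SPF pools, with CVT pool 4, of 72 such cells, the lowest. The log2 fold change was -0.21 (SE 0.087, unadjusted p = 0.0216, adjusted p = 0.872, edgeR). Cd27 did not overlap either (198 ± 3.89 in CVT, 225 ± 23.5 in SPF, log2 fold change -0.11, adjusted p = 0.953, edgeR, or -0.060 without SPF pool 1). So 2 of 6 members had CVT pools below SPF pools, against 2.79% of the 8328 genes tested, and 2 of 6 had an unadjusted p under 0.05 (Cd34 and Cd48), against 5.61%. Cd48 was at 76.9, 69.9, 60.7 and 77.4 CPM in CVT and 44.6, 72.2, 62.0 and 57.1 in SPF pools, which overlapped (log2 fold change 0.28, SE 0.135, adjusted p = 0.877, edgeR). Slamf1 was at 12.3 ± 4.51 and 8.12 ± 3.75 CPM (log2 fold change 0.37, SE 0.322), or 0.21 without CVT pool 3. None of the 6 was called, and the call rate over all genes was 0.012%: the 1 gene called, Ccl5, a chemokine of T and NK cells outside the naming rule, was higher in CVT (log2 fold change 2.81, adjusted p = 0.0288, edgeR).

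**Figure D5:**
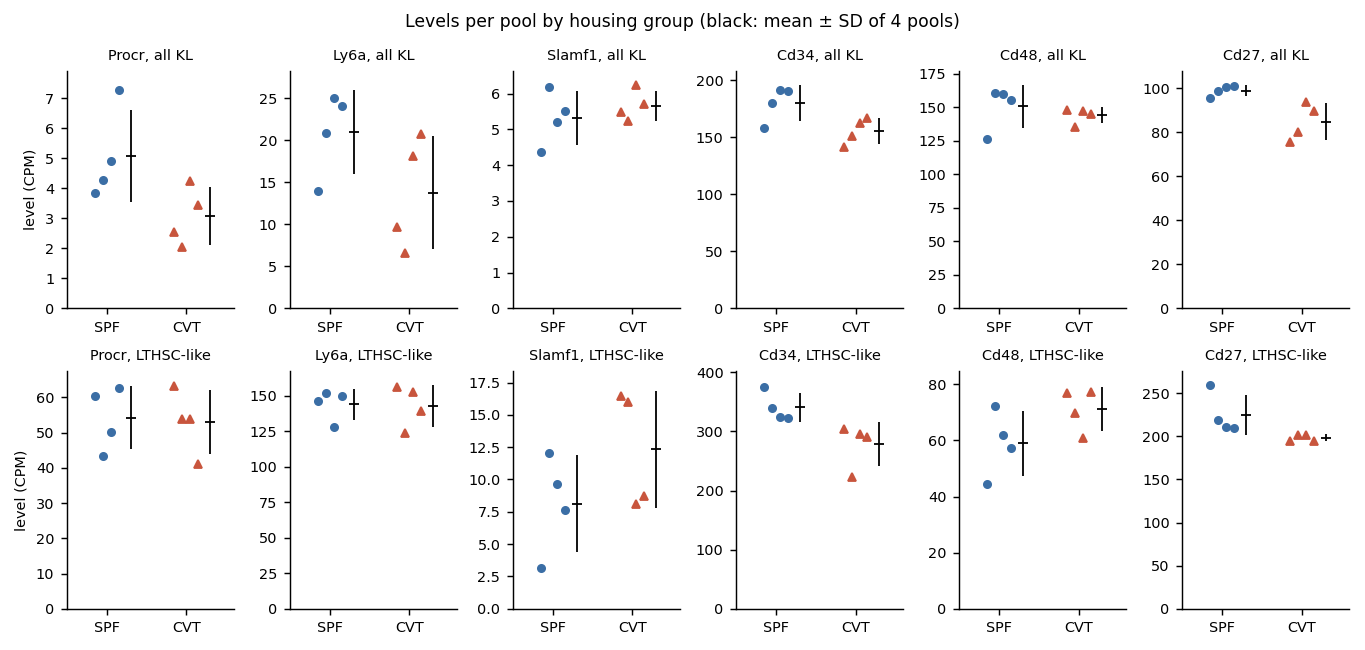
Level in CPM (vertical axes, linear, from 0) of each of the 6 genes per pool in all KL cells (top) and in LTHSC-like cells (bottom) of SPF (circles) and CVT (triangles) mice, with mean ± SD of 4 pools in black. Cd27 does not overlap between the groups in either row and Cd34 does not in the lower row, and no difference passed the test over all genes.

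In MPP-like cells none of the 5 members tested was called or apart by pools (percent called 0 of 9028 genes with edgeR, 563 or 6.24% at an unadjusted p under 0.05, 3.58% with CVT pools below SPF pools, 0 with DESeq2), with log2 fold changes from -0.17 for Ly6a to 0.085 for Procr. In LMPP-like cells (percent called 0 of 10263 with edgeR, 568 or 5.53% at an unadjusted p under 0.05, 0 with DESeq2) Procr, Cd34 and Cd27 had CVT pools below SPF pools, against 3.36% of genes. Procr was at 3.91, 3.04, 5.09 and 4.67 CPM in CVT and 7.39, 8.04, 5.36 and 8.04 in SPF pools. Its log2 fold change was -0.79 (SE 0.225, unadjusted p = 0.00257, rank 37 of the genes tested, adjusted p = 0.667, edgeR), on 176 UMIs. Ly6a in LMPP-like cells overlapped between groups (50.4 ± 12.2 and 68.5 ± 17.8 CPM, log2 fold change -0.42, adjusted p = 0.895, edgeR). With no filter on low counts its adjusted p was 0.0387, the only member and setting past the threshold, and the cause was not tested. The Ly6a-rich LMPP-like cluster is part of this class, and its share of the class in each group was not tested.

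In MEP-like cells (percent called 0 of 10904 with edgeR, 731 or 6.7% at an unadjusted p under 0.05, 1 with DESeq2, 2.99% with CVT pools below SPF pools) Slamf1 was at 9.14 ± 1.19 CPM in CVT and 9.33 ± 2.41 in SPF pools, a log2 fold change of 0.0015 (interval -0.38 to 0.38). The 4 other members tested there were between -0.85 (Ly6a, on 159 UMIs, adjusted p = 0.703, edgeR) and -0.080 (Cd34), and Procr had too few UMIs (43). In GMP-like cells, where 0.00895% of 11169 genes were called (Mgst2 alone, named after its value was seen, with 7.46% at an unadjusted p under 0.05), Cd34 (217 ± 10.98 against 243 ± 7.40 CPM) and Cd48 (227 ± 11.3 against 250.1 ± 7.36) had CVT pools below SPF pools, against 4.81% of genes. Their log2 fold changes were -0.12 (SE 0.051, adjusted p = 0.616, edgeR) and -0.095 (SE 0.048, adjusted p = 0.711, edgeR). Over the 6 populations, 33 tests of members were run, 8 had an unadjusted p under 0.05 and the smallest adjusted p was 0.616 (edgeR). Among all genes, the share with an unadjusted p under 0.05 ran from 5.53% in LMPP-like to 7.46% in GMP-like cells. The KL sums contain the cells of the other populations and the same genes recur, so these tests are not independent.

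The 6 combinations of transcripts were compared as shares of KL cells per pool by a two-sided exact permutation test over 70 regroupings, whose smallest p is 0.0286. Ly6a+ Cd34+ cells were 2.21%, 1.51%, 2.76% and 3.09% of CVT pools and 2.60%, 4.01%, 3.93% and 4.31% of SPF pools, overlapping through SPF pool 1 (exact p = 0.0857, adjusted p = 0.343 over the 6 combinations). Procr+ Cd48- cells were 1.03% ± 0.337 in CVT and 1.66% ± 0.589 in SPF pools (exact p = 0.114), and Procr+ Ly6a+ cells 0.348% ± 0.163 and 0.531% ± 0.199 (exact p = 0.229). Slamf1+ Cd48- cells, the combination shared with the erythroid and megakaryocyte branch, were 1.56% ± 0.107 and 1.46% ± 0.283 (exact p = 0.657). Cd34+ Cd48+ cells were 12.3% ± 0.464 and 12.4% ± 1.96 (exact p = 0.971), and Ly6a+ Cd48+ cells 1.18% ± 0.376 and 1.55% ± 0.463 (exact p = 0.286). Within pools 1 to 4, the CVT and SPF pools did not overlap for Procr+ Ly6a+ (0.231% and 0.397%), Procr+ Cd48- (0.751% and 1.30%) and Ly6a+ Cd34+ (1.86% and 3.30%). Within pools 5 to 8 they did not for Procr+ Cd48- (1.30% and 2.02%) and Ly6a+ Cd34+ (2.92% and 4.12%), with 2 pools a group. Without SPF pool 8 the difference in Procr+ Cd48- cells, CVT minus SPF, was -0.341 percentage points in place of -0.632, and that in Procr+ Ly6a+ cells -0.0870 in place of -0.183. The difference in Ly6a+ Cd48+ cells, -0.365 points, was -0.208 without CVT pool 4, -0.239 without SPF pool 2 and -0.588 without SPF pool 1.

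Other genes of these systems were followed from fixed lists, and none was called in any of the 6 populations by edgeR. Of 28 other sorting antigens tested over all KL cells, 19 were lower in CVT by sign and 9 higher (median log2 fold change -0.12, against -0.012 over all genes). The largest were Cd38 (-0.65, SE 0.307), at only 0.721 CPM in CVT and 1.16 in SPF pools, and Itgb3 (0.49, SE 0.334). In LTHSC-like cells 8 of 15 were lower (median -0.023, against 0.0065), with Ly6c2, a myeloid surface antigen of Ly6a's family, at 0.73 (SE 0.269, adjusted p = 0.856, edgeR), Alcam at -0.50 and Eng at -0.21. In the other states tested Ly6c2, picked there after its values were seen, was also higher in CVT by sign. Its log2 fold change was 0.87 in MPP-like, 0.81 in LMPP-like and 0.75 in MEP-like cells (adjusted p = 0.539, 0.667 and 0.703, edgeR). In GMP-like cells it was 0.41 (633 ± 45.4 CPM in CVT, 493 ± 44.5 in SPF, adjusted p = 0.125, edgeR).

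Ligands and partners of the members, such as the CD48 receptor Cd244, the SLAM adaptor Sh2d1a and the CD27 partner Siva1, were lower by sign in 9 of 15 over all KL cells (median -0.045) and higher in 9 of 10 in LTHSC-like cells (median 0.11). Cd2 (-1.06), Sh2d1a (-1.05) and Sh2d1b1 (0.26) led in KL cells, and Selp (0.45), Fyn (0.32) and Siva1 (0.21) in LTHSC-like cells. Cd2 (0.311 CPM in CVT, 0.664 in SPF, SE 0.760) and Sh2d1a (0.156 and 0.325, SE 0.700) were at very low levels in KL cells. SLAM and Ly6 family neighbours were lower in 8 of 14 (median -0.055), led by Ly6d (-0.91), Slamf8 (-0.82) and Ly6g (-0.74). Slamf8 too was very low (0.288 CPM in CVT, 0.521 in SPF, SE 0.410). In LTHSC-like cells 3 of 4 of these neighbours were higher, Ly6c2 among them, with Cd84 at -0.14 and Cd244 at 0.080. Interferon-stimulated genes, of the pathway that induces Ly6a, were lower by sign in 23 of 24 over all KL cells (median -0.28). Leading were Ifit3 (-0.86, SE 0.661, 0.743 CPM in CVT and 1.40 in SPF), Mx1 (-0.62, 0.711 and 1.16 CPM) and Ifit1 (-0.46, 4.51 and 6.47 CPM). In LTHSC-like cells 15 of 21 were higher by sign (median 0.066), led by Ifi27l2a (0.57), Rsad2 (0.54) and Ifit1 (0.35). Other states differed in sign. Lower were 19 of 22 in MEP-like (median -0.16) and 17 of 22 in LMPP-like cells (median -0.14). Higher were 16 of 21 in MPP-like (median 0.071) and 13 of 23 in GMP-like cells (median 0.038). The shares of states and marker sums given above for the same pools move with the values over all KL cells, and their part was not tested.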

How the data were processed

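UMI counts per gene and cell were produced by the authors with Cell Ranger (version not given in the sources used here, build mm9 per the labels) and deposited as whole numbers without normalization. All 29891 cells were used, and cells were assigned to pools through the numeric suffix of their names, matched to the number in the sample description. The cells per group in the study's methods differ slightly from this assignment. The members and lists were chosen with earlier results of these data known.

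Counts were clustered (1000 variable genes without the 6 members, 30 principal components, 30 neighbours, leidenalg 0.10.2, resolution 2, seed 1; scikit-learn 1.9.0, scanpy 1.11.5, Python 3.11.15). Clusters took the class with most markers among their 100 leading genes, and needed at least 3. Scrublet marked 74 cells (0.248%), too few to rely on, so doublets were kept, with alternatives without them. Shares of cells used the probability that at least 1 UMI is kept when a cell is thinned to 2759 UMIs.

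UMIs were summed per pool and tested with the quasi-likelihood method of edgeR 4.0.16 (filterByExpr, TMM, R 4.3.3) and DESeq2 1.42.0 as an alternative, with Benjamini-Hochberg adjustment over all genes tested. A class was summed only where each pool had at least 10 cells. p-values measure the spread between 4 pools a group, each of 2 or 3 mice. Shares were compared by exact permutation tests, and intervals and SDs cover the spread between pools. On simulated counts with 200 genes changed 2-fold, edgeR recovered 83.5% in KL cells, 80.0% in LTHSC-like, 85.0% in MPP-like, 89.5% in LMPP-like, 85.5% in MEP-like and 86.0% in GMP-like cells. False calls ran from 5 in LTHSC-like to 13 in MEP-like and GMP-like cells. Changes as small as those fitted for the members were not simulated, so recovery of these is not known. Named genes are the 6 members, the 3 genes most like each over clusters, and the 3 genes with the largest change of each list in KL and LTHSC-like cells. One gene that this rule names is not reported here. No comparison in CMP-like cells was made, since no cluster took that name. Alternatives were a block for pools 1 to 4 against 5 to 8, a cell filter (1000 genes or more, mitochondrial share up to 10%, 29300 cells), 5000 UMIs as the thinned depth, the 6 genes in the clustering, resolution 1, each pool left out, no low-count filter and size factors by RLE. Chosen after seeing the data were the removal of the mature-like cells, of the LTHSC-like cluster of 63 cells and of the 6% highest doublet scores.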

Additional observations from a re-analysis of the deposited data

Results flagged for a closer look

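Among 78 sets of 4 pools, 5 had a pool that stood apart by Dixon's criterion, and chance flags about 1 in 20 sets. SPF pool 1 was low for Cd48, at 127 CPM over all KL cells (the other SPF pools were at 156 to 161) and at 120.2 CPM in LMPP-like cells (other SPF pools 203 to 214). CVT pool 5 was high for Cd27 in MEP-like cells, at 27.2 CPM (other CVT pools 18.7 to 20.1). Among the CVT pools, pool 6 had the fewest Slamf1+ Cd48- cells, 1.41% of KL cells (other CVT pools 1.602% to 1.64%). Among the SPF pools, pool 8 had the most Procr+ Cd48- cells, 2.53% (other SPF pools 1.29% to 1.499%). No interaction of housing with the pool sets (pools 1 to 4, pools 5 to 8) passed the threshold for a member (smallest adjusted p 0.475, edgeR).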

How the results depend on the processing

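No paired analysis was possible because the labels tie no single SPF pool to a CVT pool, and the sets by mouse number were fitted as a block instead, which called no member. No member was called under any alternative except Ly6a in LMPP-like cells with no filter on low counts. Counts of genes called moved with the setting, with edgeR unless named. Over KL cells (0) DESeq2 called 15 and the block for pools 4. In LTHSC-like cells (1) it was 26 with no filter on low counts, 0 with DESeq2, 2 without the 6% highest doublet scores (chosen after seeing the data), 0 with the members in the clustering, and 0 to 2 with a pool left out (Ccl5 was lost without SPF pools 2, 7 or 8 or CVT pools 4 or 6). In MPP-like cells (0) it was 27 with no filter, 1 with the block, 1 with the members clustered, and 0 to 9 with a pool left out (9 without CVT pool 6). In LMPP-like cells (0) it was 41 with no filter, 2 with the block and 0 to 1 with a pool left out (1 without SPF pool 8). In MEP-like cells (0) it was 1 with no filter and 1 with DESeq2. In GMP-like cells (1) it was 12 with no filter, 14 with DESeq2, 5 with the block and 0 to 2 with a pool left out (2 without CVT pool 6, and 0 without any SPF pool or CVT pools 3 or 4).

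Log2 fold changes near 0 changed sign. Procr in LTHSC-like cells came to 0.16 with the members clustered (-0.15 to 0.10 with a pool left out). Procr in MPP-like cells came to -0.050 with the members clustered (-0.030 to 0.41). Cd48 in MPP-like cells came to 0.0058 with no filter, 0.0018 without doublets and 0.11 with the members clustered (-0.074 to 0.066). Slamf1 in MEP-like cells came to -0.0066 with the cell filter, -0.00096 without doublets, -0.022 without the highest doublet scores and -0.023 with the members clustered (-0.14 to 0.093). With a pool left out, Cd48 over KL cells ran from -0.094 to 0.025, Ly6a in LTHSC-like cells from -0.0038 to 0.078, Cd48 in LMPP-like cells from -0.020 to 0.18 and Cd34 in MEP-like cells from -0.29 to 0.13. The difference in Cd34+ Cd48+ cells, CVT minus SPF, was 4.40 percentage points in cells as deposited and 0.226 at 5000 UMIs (25492 cells) (-0.902 to 0.517 with a pool left out), and that of Slamf1+ Cd48- cells was -0.0205 to 0.184. The cause was not tested. Of 60 levels by state, 47 moved by less than the SD over pools. At resolution 1 no cluster was named LTHSC or MPP, and the cluster led by Hlf, of 3134 cells, stayed without a name. Levels and tests of LTHSC-like and MPP-like cells were therefore not checked at that setting. With the members in the clustering the LTHSC-like class shrank to 1162 cells, and its Cd48 level was 26.4, its Procr level 73.7 and its Cd34 level 259 CPM. Depth limits Slamf1 in LTHSC-like cells (97 UMIs) and Procr outside stem cells.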
